A study of Bos grunniens and Bos taurus with 11 samples.

Results

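Small RNA abundance was compared between the lungs of 3 yaks from 4200 m, the T2 group, and of 2 cattle from 1500 m, the CON group. The comparison took every library of these groups, 5 of the 11 libraries of the series, and covered all 1377 microRNA (miRNA) names listed for each library. CON animals were adult male Zaosheng cattle, a lowland breed, and T2 animals were adult male indigenous yaks from 3 counties of Tibet. Species, altitude and place of origin changed together, so their parts in any difference cannot be told apart. The other 6 libraries came from yaks at 3400 m (T1) and 5000 m (T3). They shared in the estimate of the spread between animals, and their values are given where they bear on a name. The labels called the tissue lung while the extraction text spoke of retinas, and the lung label could not be checked, since 0 of 20 tissue-marker miRNAs looked for matched a listed name.

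MicroRNAs are short RNAs that guide Argonaute proteins to messenger RNAs and lower their output. A hairpin precursor is cut by Dicer into a duplex whose strands come from the 5p and the 3p arm, and usually one arm is loaded and kept while the other is degraded, so the balance of the arms is a property of a precursor in a tissue. In lung, miRNAs are known to act in development, in the response of vessels to low oxygen and in smooth muscle growth. Of the listed names, 1046 were predictions of the study from 856 precursors, of which 190 had both arms listed, and they are given here by their numbers, such as m1080-5p. The other 331 bore 50 species prefixes of plants and algae, and 0 bore the cattle prefix bta. A name of this kind says which catalogue entry a read resembled, not that the animal carries that gene.

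The reads assigned to the listed names came to 2428001 in CON 1, 2927856 in CON 2, 5388032 in T2 1, 1589131 in T2 2 and 2436521 in T2 3. A single read was therefore worth 0.412, 0.342, 0.186, 0.629 and 0.410 RPM (reads per 1000000 assigned reads). Plant-prefixed names with at least 1 read numbered 28 in CON 1 and 19 in T2 2, against 110 in CON 2, 88 in T2 1 and 118 in T2 3. Each species thus had a library with few plant-prefixed names. The numbers of plant-prefixed names moved together with much of what differed between libraries, and their part in the results was not tested as a cause. By the study's quality summary of the small RNA data, CON 1 and T2 2 also had the lowest shares of high-quality raw bases in the series. Whether this bears on the results was not tested either. Yak and cattle are compared below within each kind of library as well as across groups.

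In T2 and CON, the lungs of both species were dominated by the same few predicted names. The most abundant, m1080-5p, took 46.5% of all reads in CON 1, 64.5% in CON 2, 64.6% in T2 1, 35.1% in T2 2 and 63.0% in T2 3. The 2 lowest shares belonged to CON 1 and T2 2, and the groups overlapped. Its mean share was 54.2 ± 16.6% in T2 (SD, n = 3) and 55.5 ± 12.8% in CON (SD, n = 2), a difference of -1.27 percentage points (exact two-sided permutation test, p = 1). The yak libraries T1 1, T3 1 and T3 2 were led by m1355-5p instead, with m1080-5p at 21.7%, 12.8% and 10.1%. These libraries also share in the estimate of the spread. The 10 most abundant names of a library held 82.3 ± 7.49% of the reads in T2 and 83.7 ± 6.37% in CON (exact permutation test, p = 0.8). T2 libraries held 429 ± 77.4 names with at least 1 read and CON libraries 402.5 ± 36.1 (exact permutation test, p = 1). Plant-prefixed names held 0.115 ± 0.0947% of the reads in T2 and 0.0928 ± 0.0866% in CON (exact permutation test, p = 0.8). All 4 of these p-values were 1 after Benjamini-Hochberg adjustment, and 3 libraries against 2 allow no p below 0.2.

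Below m1080-5p, some abundant names were ordered by the kind of library. The 3p name m0270-3p stood at 42334 and 55024 RPM in CON 1 and T2 2, and at 8565, 17084 and 6449 RPM in CON 2, T2 1 and T2 3. Likewise m0757-3p stood at 27877 RPM in CON 1 and 22558 RPM in T2 2, and at 6851, 12864 and 8879 RPM in CON 2, T2 1 and T2 3. The 2 libraries with few plant-prefixed names were thus highest for both. By contrast m1355-5p, at 56398 and 39617 RPM in CON and at 31501, 64516 and 57652 RPM in T2, showed no such order. To reach 90% of the reads took 17 names in CON 1 and 19 in T2 2, and 12, 15 and 12 names in CON 2, T2 1 and T2 3.

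**Figure D1:**
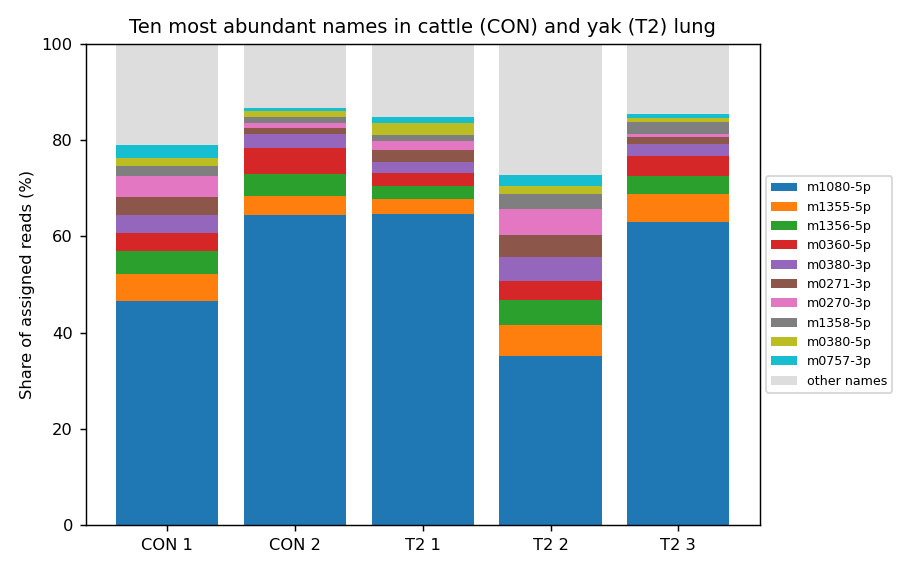
Composition of the 5 libraries, with the share of reads in percent on the vertical axis for the 10 names with the highest mean over the 5 libraries and for all other names together. The share of m1080-5p was 46.5% in CON 1 and 35.1% in T2 2 and between 63.0% and 64.6% in the other 3 libraries.

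Of the 1377 names, 825 had at least 1 read in the 5 libraries, 195 of them in all 5. The test of T2 against CON used limma on log2(RPM + 1) over the 308 names that averaged 1 RPM or more, of which 261 were predicted and 47 plant-prefixed. The T2 mean was higher for 174 names and lower for 134, with a median difference of 0.09 on the log2 scale. With Benjamini-Hochberg adjustment, 2 names passed at a p under 0.05 and a 2-fold difference, 0.649% of those tested: m0552-3p was higher in T2 and bdi-miR159b-5p.2_R15-1L23 lower. At an unadjusted p under 0.05 with the same fold, 11 names (3.57%) passed, 5 higher and 6 lower. All T2 libraries lay above all CON libraries for 19 names (6.17%) and below them for 14 (4.55%). Fold differences on the log2(RPM + 1) scale understate those of low names.

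The largest difference in the fit belonged to the precursor m0552. Its 3p arm stood at 3.29 RPM in CON 1 and 9.90 RPM in CON 2 (8 and 29 reads), and at 156 RPM in T2 1, 994 RPM in T2 2 and 369 RPM in T2 3. The lowest yak library was above the highest cattle library, and the yak libraries differed among themselves by more than the cattle libraries did. The mean was 506 ± 435 RPM in T2 (SD, n = 3) and 6.60 ± 4.67 RPM in CON (SD, n = 2), a log2 difference of 5.82 ± 0.945 (SE), with an adjusted p of 0.0103 (limma, Benjamini-Hochberg). The yaks from the other altitudes had it at 203, 471 and 480 RPM in T1 and at 198, 208 and 572 RPM in T3, so all 9 yak libraries lay above both cattle libraries. Without CON 1, the adjusted p of m0552-3p was 0.186, and with the spread taken from T2 and CON alone it was 0.191. These were the 2 of 18 alternative settings in which it was not called, over which its adjusted p ran from 9.71e-09 to 0.191 and its difference from 4.61 to 6.49.

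The 5p arm of the same precursor lay the other way. In cattle m0552-5p stood at 18.5 and 96.3 RPM, and in the yaks at 2.04, 10.1 and 6.57 RPM. The groups did not overlap, but the log2 difference of -2.78 ± 1.82 (SE) did not pass the test (limma adjusted p = 0.999). In the yaks at 3400 m this arm was at 0, 85.2 and 122 RPM, a range that takes in both cattle values. The log2 ratio of the 5p to the 3p arm was 2.19 in CON 1 and 3.16 in CON 2, and -5.69, -6.49 and -5.61 in T2 1, T2 2 and T2 3. In other words the 3p arm made up 15.1% and 9.32% of the reads of m0552 in the cattle. In T2 1, T2 2 and T2 3 it made up 98.7%, 99.0% and 98.3%. The gap between the arms was smaller in T1 2 and T1 3, with 3p at 471 and 480 RPM and 5p at 85.2 and 122 RPM. The arm balance changed by -8.60 ± 1.43 on the log2 scale (SE), with a limma adjusted p of 0.00924 over 148 precursors. It was the one precursor called, 0.676% of those tested. The adjusted p of this balance was 0.0707 without CON 1, 0.187 without CON 2, 0.0573 without T2 1 and 0.0509 without T2 2, and 0.154 with a pseudocount of 0.1. Over all 11 alternatives it ranged from 6.59e-05 to 0.187, and the balance was called in 6 of them.

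The second name called was bdi-miR159b-5p.2_R15-1L23, whose catalogue entry belongs to miR159 of a grass, a family that targets MYB factors in plants. It was at 5.35 RPM in CON 1 and 4.78 RPM in CON 2, from 13 and 14 reads, and had 0 reads in all 3 T2 libraries and in the other 6 yak libraries. Against the level that 3 reads represent per T2 library, it was at least 4.14-fold higher in CON. The fitted log2 difference was -2.60 ± 0.452 (SE), with an adjusted p of 0.0103 (limma, Benjamini-Hochberg). The call rests on few reads: it was lost in 9 of 17 alternatives, with adjusted p-values from 0.00293 to 0.991 over the 17. It was 0.605 by edgeR and 0.991 by DESeq2 on the recovered reads, 0.0568 with TMM scaling, 0.123 without CON 1, 0.0630 without T2 1 and 0.0693 without T2 2.

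The predicted precursor m1030 was read in yak and not in cattle. The reference genome named for the study's predictions was a yak assembly. Whether this affected the cattle reads of m1030, or of the arms of m0552, was not tested. The 3p arm of m1030 had 0 reads in both CON libraries and stood at 32.3 RPM in T2 1, 83.7 RPM in T2 2 and 10.7 RPM in T2 3, from 174, 133 and 26 reads. Against the level of 3 reads per CON library, m1030-3p was at least 37.4-fold higher in T2. The model gave a log2 difference of 5.002 ± 1.09 (SE) and a limma adjusted p of 0.0521, just outside the threshold. With a term for the libraries with few plant-prefixed names the adjusted p was 0.0287, and m1030-3p was called in 11 of 18 alternatives, over which the adjusted p ran from 2.50e-05 to 0.463. The 5p arm, m1030-5p, was at 3.90, 0.629 and 7.80 RPM in T2 and also at 0 in both CON libraries, at least 3.64-fold higher in T2. The T2 library with the highest 3p level, T2 2, thus had the lowest 5p level, a single read. Both arms were also read in all 6 libraries of T1 and T3, m1030-3p at 5.41 to 31.5 RPM.

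Among the other names without overlap that were higher in T2, the differences were smaller and did not pass the adjusted test. The largest was m0036-5p, at 3.29 and 0 RPM in CON and at 25.8, 17.0 and 6.98 RPM in T2 1, T2 2 and T2 3, a log2 difference of 2.92 ± 1.19 (SE) with a limma adjusted p of 0.997. Next came m0532-5p, at 4.12 and 0.683 RPM in CON and at 7.42, 14.5 and 11.9 RPM in T2, and m1538-5p, at 16.5 and 1.71 RPM in CON and at 24.5, 27.7 and 19.3 RPM in T2. In these 3 names CON 1 lay closer to the yaks than CON 2 did. Across T1 and T3, m0036-5p ran from 2.86 to 48.2 RPM, m0532-5p from 0 to 7.52 RPM and m1538-5p from 2.37 to 22.4 RPM. Each of these ranges reached below CON 1. Detection was marginal for m0786-3p, which had 0 reads in CON and stood at 2.41, 1.89 and 1.64 RPM in T2, and for m1376-5p, with 0 reads in CON and 0.557, 2.52 and 2.46 RPM in T2. Since 3 reads are worth up to 1.89 RPM in T2 2, such levels rest on 3 to 13 reads a library. The partner of m0786-3p, m0786-5p, was an abundant name, with a log2 difference of -0.21 ± 0.937 (SE).

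**Figure D2:**
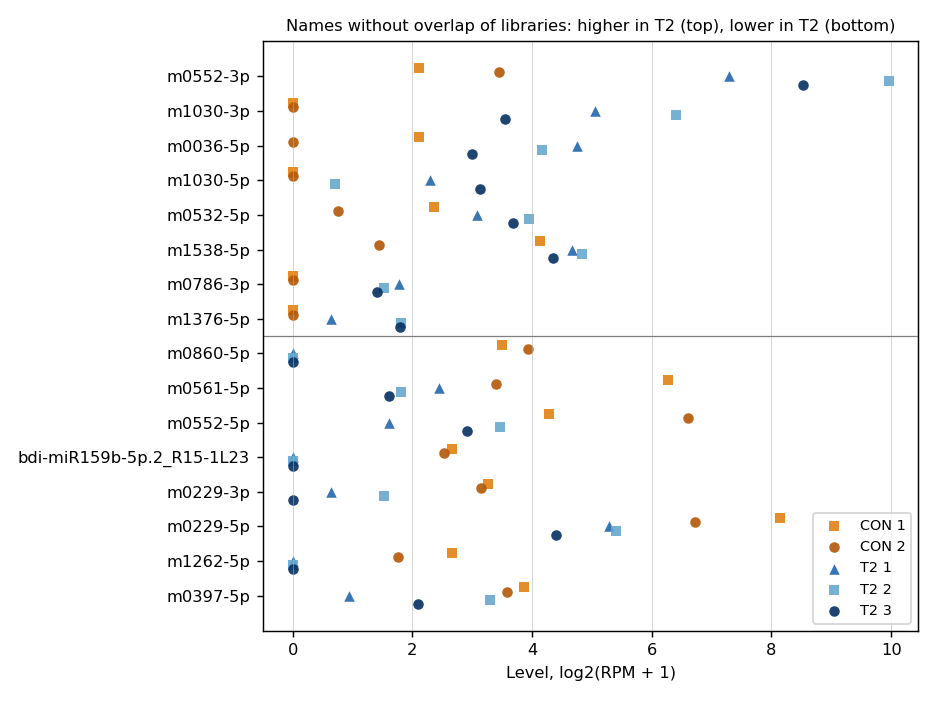
Levels in log2(RPM + 1) of the 8 names with the largest differences above and the 8 with the largest below, among names whose T2 and CON libraries do not overlap. Orange symbols are cattle and blue symbols are yaks, squares mark the libraries with few plant-prefixed names, and points are shifted vertically only to keep them apart. The widest gaps belong to m0552-3p, 3.29 and 9.90 RPM in cattle against 156 to 994 RPM in yaks, and to m1030-3p and m0860-5p, which had 0 reads in one of the 2 groups.

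Of the names lower in T2, m0860-5p had the largest difference. It stood at 10.3 RPM in CON 1 and 14.3 RPM in CON 2, from 25 and 42 reads, and had 0 reads in the 3 T2 libraries, at least 10.1-fold higher in CON. The model gave a log2 difference of -3.72 ± 0.996 (SE, limma adjusted p = 0.129). In the yaks at 3400 m, m0860-5p was at 0, 8.65 and 17.0 RPM, so its absence was not shared by all yaks. Both arms of m0229 were lower in T2 without overlap. The 5p arm was at 281 and 105 RPM in CON and at 37.9, 41.5 and 20.1 RPM in T2, with a log2 difference of -2.40 ± 1.10 (SE, limma adjusted p = 0.999). The 3p arm was at 8.65 and 7.86 RPM in CON and at 0.557, 1.89 and 0 RPM in T2, with a log2 difference of -2.49 ± 0.631 (SE, limma adjusted p = 0.105). In T1 and T3, m0229-5p ran from 2.87 to 26.2 RPM and m0229-3p from 0 to 0.817 RPM, below both cattle libraries in each case.

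Of the remaining lower names, m0561-5p differed widely between the cattle, m1262-5p rested on few reads and m0397-5p came close to overlap. The name m0561-5p was at 76.6 RPM in CON 1 but at 9.56 RPM in CON 2, and at 4.45, 2.52 and 2.05 RPM in T2 (log2 difference -2.88 ± 0.954 SE, limma adjusted p = 0.434). The name m1262-5p was at 5.35 and 2.39 RPM in CON with 0 reads in T2, at least 3.16-fold higher in CON (limma adjusted p = 0.0888). The name m0397-5p was at 13.6 and 10.9 RPM in CON and at 0.928, 8.81 and 3.28 RPM in T2, with a log2 difference of -1.61 ± 1.16 (SE, limma adjusted p = 0.999). The highest T2 value of m0397-5p was close to its lower cattle value. Its T3 1 value, 11.5 RPM, lay above that cattle value, while the rest of T1 and T3 ran from 0 to 4.53 RPM.

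Of the 141 names with at least 10 reads in each of the 5 libraries, 9 (6.38%) did not overlap, against 33 (10.7%) of all 308 tested names. These 9 were chosen for description after their values were seen. The 6 higher in T2 were m0287-5p, m0481-5p, m0531-5p, m0548-3p, m1068-5p and m1328-3p. The most abundant, m0287-5p, was at 459 and 357 RPM in CON and at 1361, 839 and 564 RPM in T2, a log2 difference of 1.09 ± 0.806 (SE, limma adjusted p = 0.999). The tightest within groups was m0481-5p, at 9.88 and 8.88 RPM in CON and at 16.9, 17.0 and 17.6 RPM in T2. Its difference had a standard error of 1.22 around 0.81 (log2), and its T1 and T3 values, which share in the spread, ran from 0 to 18.99 RPM. The 3 lower were m0229-5p, m0552-5p and m1352-3p, the last at 42.4 and 17.4 RPM in CON and at 16.7, 13.8 and 13.95 RPM in T2.

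The groups were also compared by detection. Of the 825 names with a read in the 5 libraries, 9 (1.09%) were read in all 3 T2 libraries and in no CON library, and 9 (1.09%) in both CON libraries and in no T2 library. All 9 of the former were predicted names, among them both arms of m1030. With at least 3 reads asked for in each library of the one group and 0 in the other, there were 3 names on each side. With at least 10 reads asked for, m1030-3p was left on the yak side, and m0860-5p and bdi-miR159b-5p.2_R15-1L23 on the cattle side. Lists of names read in one group alone, in any number of its libraries, were far longer, at 270 for T2 and 149 for CON, and the group with more libraries and reads had the longer list. Another split ran across the species: 52 names were read in T2 1, T2 3 and CON 2 alone, and 48 of these were plant-prefixed, while 9 were read in T2 2 and CON 1 alone, all predicted.

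The pairs of libraries closest to each other joined a cattle and a yak library. Over the 308 tested names, Pearson's r of log2 levels was 0.962 between CON 1 and T2 2 and 0.950 between CON 2 and T2 3, pairs with like numbers of plant-prefixed names. It was 0.873 between the 2 cattle libraries and 0.802 between T2 2 and T2 3, pairs with unlike numbers. T2 1 did not follow this order: its r was 0.926 with CON 1 and 0.926 with T2 2, against 0.913 with CON 2 and 0.883 with T2 3. The other unlike pairs, CON 1 with T2 3 and CON 2 with T2 2, had r of 0.807 and 0.841. These are descriptions across names, which are not independent replicates. Names more than 2-fold apart made up 24.7% for CON 1 with T2 2 and 32.8% for CON 2 with T2 3, and 56.5% for the 2 cattle libraries and 69.5% for T2 2 with T2 3. For T2 1 they made up 44.2% with CON 1, 51.6% with T2 2, 50.3% with CON 2 and 61.0% with T2 3. With predicted names alone, 261 in all, r ran from 0.905 for CON 1 with T2 3 to 0.961 for T2 1 with T2 2, a pair of unlike libraries. The shares more than 2-fold apart were then 27.2% for CON 1 with T2 2, 36.02% for CON 2 with T2 3 and 50.6% for the 2 cattle libraries, and 41.4%, 48.7%, 46.4% and 56.7% for T2 1 with CON 1, T2 2, CON 2 and T2 3.

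Yak was also set against cattle within libraries of like numbers of plant-prefixed names, as T2 2 minus CON 1 and as the mean of T2 1 and T2 3 minus CON 2, which share no library. In the first 76 names (24.7%) differed by 2-fold or more and in the second 81 (26.3%). In 16 names both differences were higher in yak, in 7 both were lower and in 7 they were opposite. The 23 names with the same direction were 30.3% of the first list and 28.4% of the second. Pearson's r between both sets of differences was 0.398 and Spearman's rho 0.241 across the 308 names. Set across kinds, as T2 2 minus CON 2 and as the mean of T2 1 and T2 3 minus CON 1, the lists grew to 208 and 168 names. Then 18 names had the same direction and 120 the opposite, and r was -0.616. Since plant-prefixed names set the kinds, part of this opposition was built in, and 39 of the 120 were plant-prefixed. With the 261 predicted names alone, 17 had the same direction and 81 the opposite. Their r was -0.05, against 0.41 within like libraries. The SD of the differences was 1.16 and 1.07 (log2) within like libraries and 2.29 and 1.88 across them. For predicted names it was 1.21 and 1.10 within and 1.54 and 1.26 across.

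The names that differed most in both like pairs were largely those already described. In T2 2 minus CON 1 and in the other like pair, the log2 difference was 7.86 and 4.47 for m0552-3p, 6.40 and 4.30 for m1030-3p and 2.07 and 3.87 for m0036-5p. For m0532-5p it was 1.60 and 2.63 and for m0786-3p 1.53 and 1.59. On the lower side it was -3.50 and -3.94 for m0860-5p, -2.67 and -2.53 for bdi-miR159b-5p.2_R15-1L23, -2.73 and -1.89 for m0229-5p, -2.67 and -1.76 for m1262-5p and -1.74 and -2.83 for m0229-3p. Of the 16 names higher in both, 9 did not overlap between groups, and of the 7 lower in both, 6 did not, against 6.17% and 4.55% of all tested names. Since these names were picked for one direction in both pairs, which favours no overlap, nothing is read from these counts. The arm m0552-5p was not among them, with differences of -0.82 and -4.34.

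**Figure D3:**
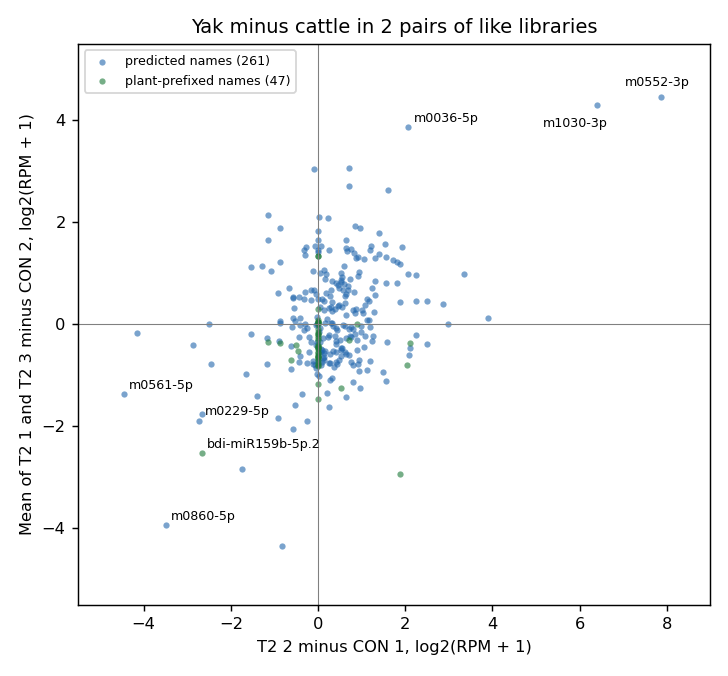
Yak minus cattle in log2(RPM + 1) for each of the 308 tested names, within the libraries with few plant-prefixed names (horizontal, T2 2 minus CON 1) and within those with many (vertical, mean of T2 1 and T2 3 minus CON 2). The names m0552-3p and m1030-3p lie far out on the higher side in both, while most plant-prefixed names, in green, lie close to 0 on the horizontal axis.

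A fit over the 9 libraries with many plant-prefixed names left CON 2 alone for the cattle. Its spread came from the yak libraries, so only differences are given. For bdi-miR159b-5p.2_R15-1L23 the log2 difference was -2.53, from 14 reads in CON 2 and 0 in every yak library. For m0552-3p it was 4.47. With all 11 libraries and a term for the kind of library, that difference was 5.92 ± 0.891 (SE) and its adjusted p 0.0069.

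The kinds of library were set by the number of plant-prefixed names. Low levels of families conserved among land plants in CON 1 and T2 2 therefore restate that choice, and are given as a description. Names of miR165 and miR166, which target HD-ZIP III factors in plants, were at 3.29 and 0.629 RPM in CON 1 and T2 2, and at 368, 118 and 596 RPM in CON 2, T2 1 and T2 3. The family of miR482 and miR2118, known for targeting disease resistance genes, summed to 0.412 and 0 RPM in CON 1 and T2 2 and to 309, 107 and 489.6 RPM in the other 3. Names of miR396, which targets growth-regulating factors, were at 0 and 1.89 RPM and at 279, 98.4 and 409 RPM in the same order. For miR159 and miR319 together the sums were 5.35 and 0.629 RPM and 119, 33.96 and 179 RPM, and all 13 reads of CON 1 were those of bdi-miR159b-5p.2_R15-1L23. The copper-linked families miR408 and miR397 had 0 reads in CON 1 and T2 2 and were at 25.3 and 24.6 RPM in CON 2, 10.02 and 5.57 RPM in T2 1 and 37.3 and 36.1 RPM in T2 3. The 91 detected names of conserved families together held 10.7 and 5.03 RPM in CON 1 and T2 2, and 1164, 388 and 1824 RPM in CON 2, T2 1 and T2 3.

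Within the 3 libraries that held them, plant-prefixed names kept nearly fixed proportions across the species. Many plant-prefixed names end in a pair of positions whose meaning was not given in the sources used here. Names whose positions fall, among them bdi-miR159b-5p.2_R15-1L23 and gma-miR1520q_R22-8L24, were set apart, and 21 names with rising or no positions had at least 10 reads in each of CON 2, T2 1 and T2 3. Their ratio of T2 3 to CON 2 had a median of 1.60, ran from 1.001 to 2.07 and was above 1 for all 21. Their ratio of T2 1 to CON 2 had a median of 0.342, ran from 0.24996 to 0.543 and was above 1 for 0. One yak library was thus above the cattle library and one below it for the whole set. Pearson's r of log2 RPM across the 21 names was 0.992 and 0.990.

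The highest plant-prefixed name, gma-miR1520q_R22-8L24, behaved otherwise. It stood at 270.2 RPM in CON 1, 107 RPM in CON 2, 176 RPM in T2 1, 499 RPM in T2 2 and 66.9 RPM in T2 3, highest in the 2 libraries where other plant-prefixed names were low. By contrast ata-miR166d-3p_R1-20L21 was at 1.24, 194, 60.3, 0.629 and 300.0 RPM in that order. The remaining 3 of the 5 highest, ata-miR396c-5p_R2-21L21, sly-miR166c-3p_10G-A and nta-miR482c_R1-22L22, had 0 reads in CON 1 and T2 2. Between the groups, 36 of the 47 tested plant-prefixed names had a higher mean in T2 and 11 a lower one, with a median log2 difference of 0.31 against 0.09 over all tested names. With the term for the kind of library this median was -0.26 against 0.12 over all names, so its direction turned. In the 33 tested names of conserved families it was 0.37 and, with the term, -0.24. Of the 47, 0 were higher and 2 lower without overlap, against 6.17% and 4.55% of all tested names. The 2 lower names were bdi-miR159b-5p.2_R15-1L23 and ptc-miR6471_R18-4L21. A name with 0 reads in T2 2 and some in CON 2 cannot be higher in all T2 libraries. Since the kinds of library were set by plant-prefixed names, nothing is read from these counts.

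**Figure D4:**
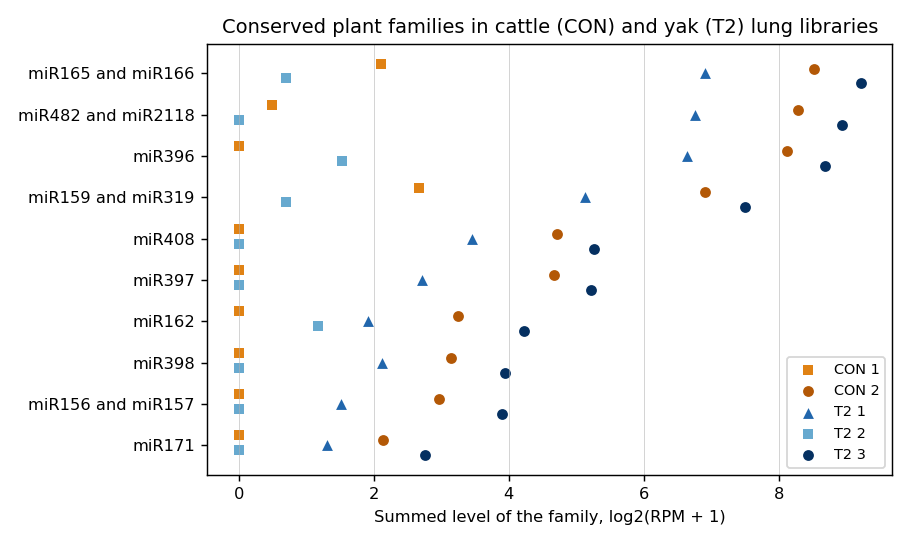
Summed level of plant-prefixed families in log2(RPM + 1) in each of the 5 libraries, with cattle in orange and yaks in blue and squares for the libraries with few plant-prefixed names. For miR165 and miR166 the sums were 3.29 and 0.629 RPM in CON 1 and T2 2 against 118 to 596 RPM in the other 3 libraries.

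The study placed 9 miRNAs in its networks, all plant-prefixed and chosen by it on these samples, so they are not independent evidence of a direction. Of these, 5 were abundant enough to be tested between T2 and CON, 3 with a higher and 2 with a lower mean in T2, and 0 passed the limma test at either the adjusted or the unadjusted threshold, which 0.649% and 3.57% of all tested names passed. The lowest unadjusted limma p was 0.209. Their median log2 difference was 0.32, and -0.44 with the term for the kind of library, where 1 was higher and 4 lower. The members at the highest level were ata-miR166d-3p_R1-20L21, given above, and sly-miR482e-3p_R1-21L22, at 0.412 and 73.4 RPM in CON 1 and CON 2 and at 26.0, 0 and 118 RPM in T2 1, T2 2 and T2 3. The cattle values spanned most of the yak range in both. The other 3 tested members, gma-miR6300_R2-18L18, stu-miR408b-5p_R4-21L21 and ptc-miR6471_R18-4L21, stayed at 5.34 RPM or below in all 5 libraries. The 4 not tested were ppt-miR902f-3p_R15-1L20, ata-miR5168-3p, ath-miR5658_R1-19L21_8T-A and pab-miR396a, none above 3.69 RPM.

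Most precursors kept the same leading arm in both species. Of the 148 precursors whose arms together averaged at least 1 RPM, 101 had the same arm ahead in all 5 libraries, the 5p arm in 57 and the 3p arm in 44. The abundant precursor m0360, for example, had its 3p arm at 65.9 and 55.3 RPM in CON and at 57.9, 68.0 and 48.4 RPM in T2, far below its 5p arm. The 5p arm led in both cattle and the 3p arm in all 3 yaks in 2 precursors, m0552 and m0307, and the converse occurred in 0. In m0307, named after its values were seen, the log2 ratio of the arms was 0.11 and 0.34 in CON and -0.64, -0.02 and -0.28 in T2, so the arms were nearly even throughout. At an unadjusted p under 0.05 and a 2-fold change, 5 precursors (3.38%) passed. The groups did not overlap for 19 precursors, 10 with the balance further toward 5p in T2 (6.76%) and 9 further toward 3p (6.08%).

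Apart from m0552, the largest changes of arm balance came from low names and did not pass the adjusted test. In m1531 the log2 ratio of 5p to 3p was 1.49 and 1.90 in CON and 0.00, -0.88 and -0.67 in T2, a change of -2.21 ± 0.958 (SE, limma adjusted p = 0.997). In m1339 it was -3.21 and -2.25 in CON and -1.07, -1.42 and 0.50 in T2, a change of 2.07 ± 0.913 (SE, limma adjusted p = 0.997). In m1030 the change was -2.96 ± 1.31 (SE), but its CON value of 0 was only the pseudocount, since neither arm was read in cattle. In m0532 and m0036 the change was 2.27 and 2.18, with both 3p arms at 6.92 RPM or less in all 5 libraries.

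**Figure D5:**
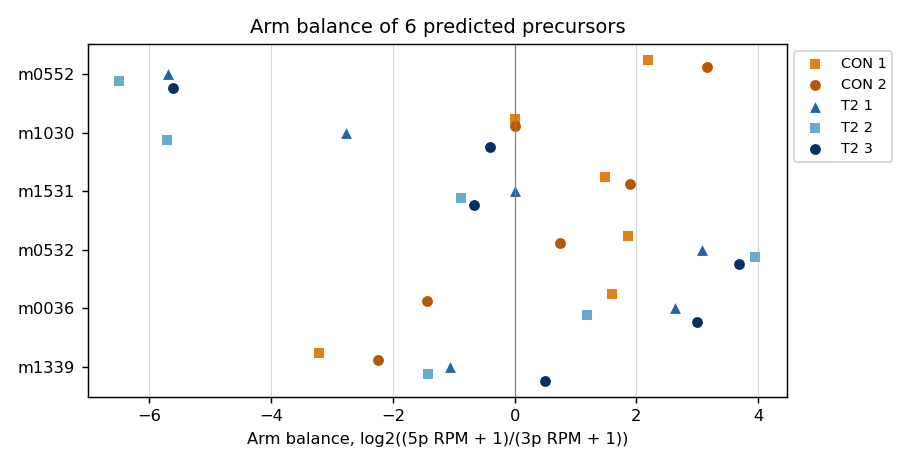
Arm balance, the log2 ratio of 5p to 3p levels after adding 1 RPM to each, of the 6 precursors with the largest changes in each library, with cattle in orange and yaks in blue and points shifted vertically only to keep them apart. For m0552 the cattle libraries sit at 2.19 and 3.16 and the yak libraries between -6.49 and -5.61, and the 0 of m1030 in cattle stands for no reads on either arm.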

How the data were processed

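Lung small RNA of 2 CON and 3 T2 animals was analysed, with the 3 T1 and 3 T3 libraries added to estimate the spread between animals. The authors' methods state that reads were trimmed and filtered, cleared of other small RNA classes and compared with miRBase, and that further miRNAs were predicted with MIREAP from positions on the reference genome. The reference named there was the yak assembly BosGru_v2.0. RPM values per name were deposited, which sum to 1000000 per library. All 4651 values above 0 (100.0%, tolerance 0.02 reads) were whole multiples of 1 read, which gave the reads per library. Detection limits (3 reads) cover counting error only, since no molecular identifiers were used here. Replicates were separate animals per the study's methods, and 0 columns of values were left unassigned. No mature sequences or coordinates were used here.

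The test was limma 3.58.1 (R 4.3.3), run on log2(RPM + 1) with a trended variance over all 11 libraries with 1 mean per group, for names that averaged 1 RPM or more over T2 and CON. A call needed a p under 0.05 after Benjamini-Hochberg adjustment and a 2-fold difference. Arm balance was fitted in the same way over precursors, but without a trend in the variance. The text names the 10 most abundant names, called names, up to 8 names per direction without overlap, the 5 highest plant-prefixed names, the 9 network miRNAs, up to 5 names per direction alike in both like pairs, their other arms and 3 precursors per direction of arm change; others were named after their values were seen. Members and lists were chosen with earlier results of these data known. Libraries below 50 plant-prefixed names (CON 1, T2 2) were treated as a kind. The alternatives were edgeR 4.0.16 and DESeq2 1.42.0 on the recovered reads, TMM and RLE scaling, leaving out m1080-5p, other filters and pseudocounts, the 2 groups alone, a term for the kind of library, predicted names alone, the replicate number as a block, and fits that left out 1 library. A term for the level of plant-prefixed names was added after seeing the data, as were predicted names alone in the 9-library fit. Permutation tests used scipy 1.17.1 in Python 3.11.15. Scripts were tested on simulated data.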

Additional observations from a re-analysis of the deposited data

How the results depend on the processing

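The count of names called between T2 and CON was 2 of 308 by limma and 11 at an unadjusted p. It was 4 of 1291 without the filter (2 higher, 2 lower) and 0 of 141 with 10 reads asked for in each library. With a pseudocount of 10 it was 1, and 0 with the 2 groups alone. The added term for the level of plant-prefixed names gave 5 (2 higher, 3 lower). Leaving out each library gave 0 (without CON 1) to 3 (without CON 2 or T2 3). The 2 calls were 1 higher and 1 lower by limma, and 2 higher and 0 lower by edgeR, by DESeq2 and with TMM scaling. With the replicate number as a block it was 1. Same-numbered libraries had correlations of deviations of 0.11 and -0.81 over the 2 pairs. The deviations of the 2 CON libraries mirror each other, so these values cannot show whether the numbers pair animals. The 9-library fit called 1 name, and 11 at an unadjusted p, 18 without m1080-5p (2 higher, 16 lower), 63 without the filter (all lower), 5 without T2 1 or T2 3 each, and 0 by edgeR, with TMM or RLE scaling, a pseudocount of 10, predicted names alone, 10 reads or the replicate block. There the median difference of all names was -0.04, and -0.25 with TMM and -0.24 with RLE scaling. The 1 call of arm balance was 5 at an unadjusted p and 0 with a pseudocount of 0.1, and 0 to 1 on leaving out a library (1 without T2 3). Names without overlap, 33 of 308, were 9 of 141 with 10 reads and 51 without m1080-5p, where 426 names reached the filter. On leaving out a library they were 55 to 91, where fewer libraries overlap less. The difference in the share of m1080-5p, -1.27 percentage points, ranged from -10.3 to 8.30 on leaving out a library and reversed to 7.76 without CON 2 and 8.30 without T2 2. That of plant-prefixed names, 0.0218, ranged from -0.0394 to 0.0831 and reversed to -0.0394 without CON 1 and -0.0328 without T2 3. The 16 names plotted without overlap and the 9 with 10 reads kept their direction under the alternatives run. They were chosen for no overlap, so leaving out a library or changing the pseudocount or filter could not turn it. Nothing is read from this. Among the network names, none of which was called, ata-miR166d-3p_R1-20L21 (log2 difference 0.58) turned to -0.49 with the term for the kind of library and -0.52 with that for the level of plant-prefixed names, and ranged from -2.65 to 3.80 on leaving out a library. With the same 2 terms sly-miR482e-3p_R1-21L22 (0.52) turned to -0.44 and -0.46, and its range was -2.34 to 3.38. With the second term gma-miR6300_R2-18L18 (0.32) turned to -0.012, with a range of -0.56 to 1.20, and with a pseudocount of 0.1 stu-miR408b-5p_R4-21L21 (-0.10) turned to 0.19, with a range of -1.11 to 0.36. The uncalled m0786-5p ranged from -0.45 to 0.27. Names given by their levels alone were not included here. Other causes of these shifts were not tested. With 3 animals against 2 and a median SD within groups of 1.05 (log2), a 2-fold difference in a name of that spread was not detectable, and each cattle value rests on 2 libraries.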
